A study of Mus musculus with 10 samples.

Results

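The genes described here are those of glycolysis and of the response to low oxygen, chosen by name from a list of 35 symbols, with no measured value in the rule. Of these, 34 were found among the 20325 gene rows of the expression table, and all 34 were abundant enough to be tested. Pkm had no row of its own, but the same gene is listed under its older symbol, Pkm2. The set holds 23 genes of glucose transport, glycolysis and the fate of pyruvate, and 11 genes of the hypoxia response.

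RNA-seq was carried out on 5 lines of mouse embryonic stem cells (mESCs), pluripotent cells taken from the early embryo, with 2 libraries per line and 10 libraries in all. The Daxx-/- line (129/SvEv) lacks DAXX, a chaperone of the histone variant H3.3, and was also studied with a DAXX transgene put back. The H3.3 KO line (129 x C57BL/6J) was studied alone, with wild-type (WT) H3.3, and with H3.3 L126A-L130A, a mutant built to bind DAXX without being stably placed in nucleosomes (the study's text names the second residue as isoleucine, where the sample labels have leucine). The questions asked were what each transgene changes in its own KO line, and whether H3.3 that cannot be deposited acts like WT H3.3. All 5 lines were grown without feeder cells in medium with LIF, the GSK3 inhibitor CHIR99021 and the MEK inhibitor PD0325901. Transgenes were tagged, delivered by lentivirus from an EF1 promoter and selected with puromycin, each genotype was a single line, and no unmodified wild-type line was among the samples analysed here. The replicates are called biological in the study, but nothing says whether cultures were separate, so p-values measure the spread between 2 libraries, which may be technical.

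Glycolysis splits glucose into pyruvate, yielding a little ATP without oxygen, and lactate dehydrogenase turns pyruvate into lactate so that the pathway can go on. The hypoxia-inducible factors (HIF) are dimers of an oxygen-sensitive alpha subunit (Hif1a or Epas1) with Arnt. When oxygen is present, the EGLN enzymes hydroxylate the alpha subunit, and the VHL protein then marks it for destruction. Stabilised HIF switches on glucose transporters, most glycolytic enzymes, Pdk1 (which keeps pyruvate out of mitochondria) and several of its own regulators such as Egln3. Mouse embryonic stem cells use glycolysis even in air, and the oxygen tension of these cultures is not given in the sources used here.

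Total expected counts ranged from 15463625 to 21396585 per library, with a median of 17362425. Daxx transcript averaged 77.3 ± 7.6 CPM (counts scaled by the library's effective size; SD, n = 2) in the Daxx-/- line and 207 ± 0.647 CPM with the transgene, so the KO line still carries Daxx RNA. H3f3a ran at 377 to 494 CPM in the 4 Daxx libraries and at 2.84 to 10.9 CPM in the 6 libraries from H3.3 KO cells. H3f3b, the other H3.3 gene, was counted in every library (84.4 to 719 CPM), so its RNA does not check the H3.3 KO label. The 6 stem cell markers in the table were present in all libraries (sum 3075 to 4991 CPM). Marker sums of other cell types stayed low for primitive endoderm (4.03 to 18.7 CPM, highest in Daxx-/- replicate 2), trophoblast (0.278 to 1.42 CPM), fibroblasts (4.41 to 40.4 CPM, highest in Daxx-/- replicate 2) and erythroid cells (0.226 to 1.34 CPM, with 2 of 3 markers at 0). Neural markers summed to 42.9 to 227 CPM and primed epiblast markers to 55.4 to 287 CPM.

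HIF binds DNA at a core that reads ACGTG or GCGTG, so the letters before the starts of these genes are shown first. RefSeq promoter windows (build GRCm38.p6, 250 bases before to 50 after the start) were matched for 32 of the 34 genes, with Ndrg1 and Slc2a3 unmatched. The sequencing files carry no coordinates and were made on mm9, so these windows serve only as a reference. Where a gene had several windows, the most upstream was used for the set, the first listed for tested genes, and all in the total. The shares below thus compare windows picked by different rules. ACGTG, on either strand, stood in 17 of the 32 windows (53.1%), against 25.9% of 9407 windows of tested genes and 19.6% of all 32851 windows. One or both cores stood in 25 of the 32 (78.1%), against 63.3% and 43.8% of those windows. These are matches of letters and not sites of binding, and the E-box CACGTG holds ACGTG on both strands and so counts once on each. The 250 bases before the start are printed for the 4 genes that passed the test in a comparison below and for Ldha, which had the most matches of the set, with capitals marking each ACGTG or GCGTG core on either strand. Slc2a1 lies at chr4:119108495-119108744 on the plus strand, Gpi1 at chr7:34230337-34230586 on the minus strand, Ldha at chr7:46845554-46845803 on the plus strand, Pdk1 at chr2:71872974-71873223 on the plus strand and Ankrd37 at chr8:45999851-46000100 on the minus strand.
Slc2a1: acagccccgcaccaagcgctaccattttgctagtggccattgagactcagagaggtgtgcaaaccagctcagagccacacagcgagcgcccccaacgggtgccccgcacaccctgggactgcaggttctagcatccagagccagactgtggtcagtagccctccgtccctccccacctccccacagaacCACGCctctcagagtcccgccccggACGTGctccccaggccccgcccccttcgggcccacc
Gpi1: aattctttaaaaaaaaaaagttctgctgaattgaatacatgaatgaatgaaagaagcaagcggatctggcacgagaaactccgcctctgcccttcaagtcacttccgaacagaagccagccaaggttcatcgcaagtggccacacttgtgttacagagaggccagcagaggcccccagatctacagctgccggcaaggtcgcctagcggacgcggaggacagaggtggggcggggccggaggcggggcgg
Ldha: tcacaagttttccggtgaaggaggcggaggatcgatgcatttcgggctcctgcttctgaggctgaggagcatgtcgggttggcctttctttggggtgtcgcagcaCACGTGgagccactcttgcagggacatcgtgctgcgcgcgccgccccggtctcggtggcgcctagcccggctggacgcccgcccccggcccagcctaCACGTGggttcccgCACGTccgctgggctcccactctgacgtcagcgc
Pdk1: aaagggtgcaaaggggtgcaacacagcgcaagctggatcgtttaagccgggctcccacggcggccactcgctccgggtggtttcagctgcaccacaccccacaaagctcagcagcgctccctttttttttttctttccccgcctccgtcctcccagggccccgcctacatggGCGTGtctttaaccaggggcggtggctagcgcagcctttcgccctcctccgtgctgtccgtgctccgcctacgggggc
Ankrd37: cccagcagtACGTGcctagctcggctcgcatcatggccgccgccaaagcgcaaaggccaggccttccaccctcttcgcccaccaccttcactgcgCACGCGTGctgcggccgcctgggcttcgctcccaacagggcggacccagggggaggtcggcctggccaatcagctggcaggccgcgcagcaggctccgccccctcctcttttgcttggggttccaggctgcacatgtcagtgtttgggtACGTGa

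Ldha had 5 matches to ACGTG in these 250 bases, 4 of them from 2 copies of CACGTG, and Ankrd37 had 2 of each core. Slc2a1 had 1 of each, Pdk1 had 1 GCGTG, and Gpi1 had none, which says only that these letters are not in this stretch.

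Levels between genes were compared per kilobase of annotated transcript. Gapdh, which makes the first high-energy intermediate of the lower pathway, was highest, with a median over the 10 libraries of 3917 CPM per kilobase. Pkm2 (pyruvate kinase, the last step) followed at 1098, Aldoa (aldolase) at 939, Eno1 (enolase) at 541, Pgk1 at 470, Ldha at 466, Tpi1 at 394 and Pgam1 at 371 CPM per kilobase. All of these enzymes have copies elsewhere in the genome that can share reads, so their absolute levels are uncertain. The hypoxia-response genes sat lower, from 77.4 CPM per kilobase for Vegfa, an angiogenic growth factor, down to 3.24 for Egln3 and 0.411 for Adm, which encodes the vasodilator peptide adrenomedullin. The length behind Vegfa is uncertain, and with its longest transcript the median was 25.6. The order among neighbours such as Pgk1 and Ldha lay well within their ranges over libraries (215 to 611 and 179 to 705 CPM per kilobase).

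**Figure D1:**
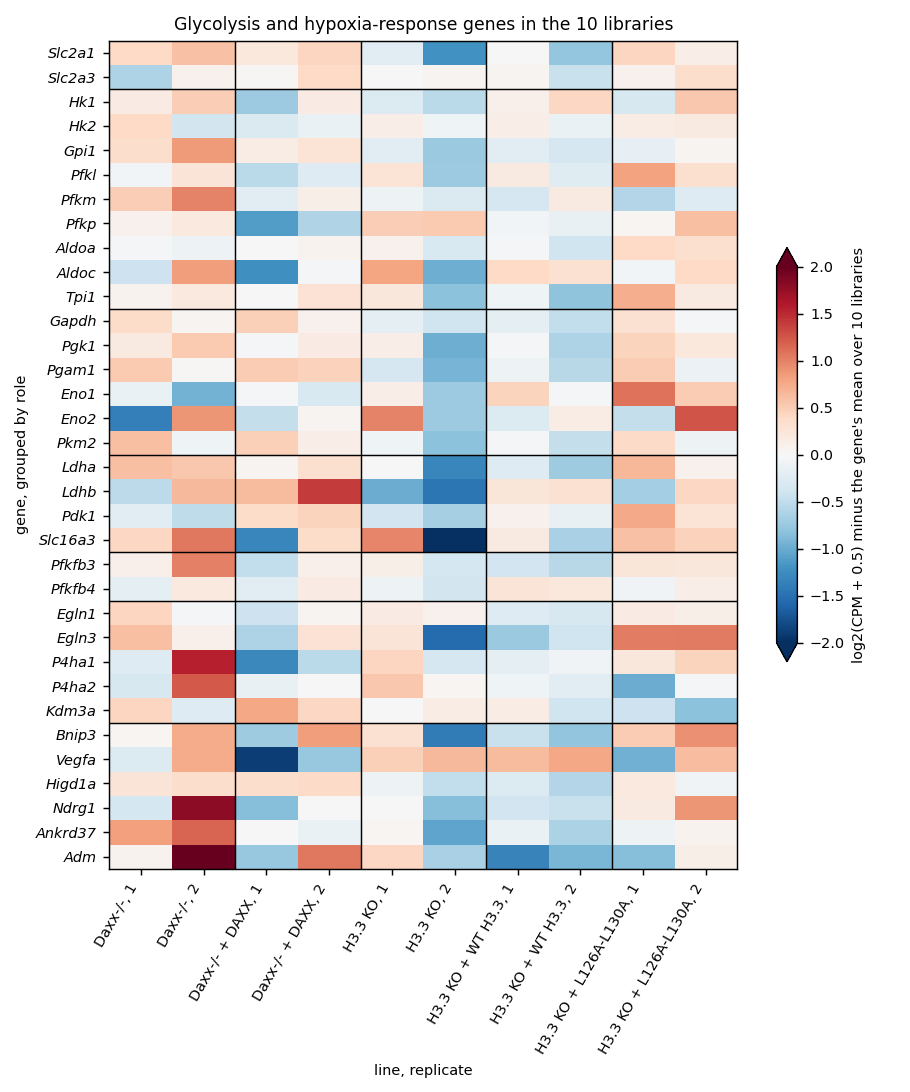
Each row is one of the 34 genes and each column one of the 10 libraries. Colour gives log2(CPM + 0.5) minus that gene's own mean over the libraries. Black lines part the 5 lines and the 7 roles, which run from top to bottom as glucose transport, upper glycolysis, lower glycolysis, lactate and pyruvate, PFK regulators, hydroxylases and hypoxia effectors. H3.3 KO replicate 2 is the lowest library for 16 genes and Daxx-/- replicate 2 the highest for 12.

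Replicates of one line differed in these genes. In the H3.3 KO line 17 of 34 genes (50.0%) stood over 1.5-fold apart between the 2 libraries, against 12.0% of the 13201 genes tested, and all 17 were higher in replicate 1. In the DAXX-rescued line 11 genes (32.4%) did so, against 14.0% of all genes, and all 11 were higher in replicate 2. In the Daxx-/- line the count was 16 (47.1%) against 32.5%, with 12 of them higher in replicate 2. The WT H3.3 line had 3 (8.82%) against 7.72%, all higher in replicate 1, and the L126A-L130A line 8 (23.5%) against 20.7%, with 7 of them higher in replicate 2. Over all genes tested, those over 1.5-fold apart were more often higher in replicate 2 in every line. The counts were 1325 against 525 with DAXX, 2547 against 1739 in Daxx-/- and 2019 against 718 with L126A-L130A, where the set leaned the same way. They were 880 against 701 in H3.3 KO and 812 against 207 with WT H3.3, where the set leaned to replicate 1. The median log2 ratio of replicate 1 to replicate 2 over the set was 0.55 in the H3.3 KO line, 0.25 with WT H3.3, -0.02 with L126A-L130A, -0.33 in Daxx-/- and -0.30 with DAXX, while the median over all genes lay between 0 and 0.03 in every line. With 1 library a side these differences have no test.

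Slc16a3, Aldoc, Eno2 and several hypoxia-response genes stood at the far ends of these ratios. Slc16a3, which exports lactate, stood at 63.0 and 7.13 CPM in replicates 1 and 2 of the H3.3 KO line, a log2 ratio of 3.06. Other H3.3 KO pairs far apart were Aldoc at 44.7 and 12.7 CPM, Egln3 at 9.11 and 2.29 CPM, Eno2 at 21.1 and 6.08 CPM and Bnip3, a mitophagy receptor, at 45.8 and 13.7 CPM. In the Daxx-/- line the order was turned round, with replicate 2 the higher. There Ndrg1, a stress-response gene, stood at 34.7 and 155 CPM, P4ha1 (a subunit of the enzyme that hydroxylates proline in collagen) at 32.5 and 116 CPM, and Eno2 at 3.72 and 19.5 CPM. Adm was counted 15 times in one Daxx-/- library and 159 times in the other. Not every gene followed: Eno1, Pkm2 and Hk2 were over 1.5-fold higher in Daxx-/- replicate 1, with log2 ratios of 0.81, 0.68 and 0.76.

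Averaged over the 34 genes, the log2 level stood 0.63 below the mean of the 10 libraries in H3.3 KO replicate 2, which was -0.69 for the glycolysis genes and -0.49 for the hypoxia-response genes. Daxx-/- replicate 2 stood 0.52 above, with 0.32 for the glycolysis genes and 0.93 for the hypoxia-response genes. Over all genes tested the same averages lay within -0.07 and 0.05 in every library. Differences between lines made up a median of 63.9% of each gene's variance over the libraries, against 74.4% over all genes tested. With 2 libraries per line, part of this share arises even where lines do not differ, and that part was not subtracted. The share was 88.2% for Pfkp and 87.7% for Pdk1, but 8.8% for Eno2, 27.4% for Aldoc and 29.5% for Slc16a3. Marker sums of primitive endoderm, trophoblast and fibroblasts were the highest of the 10 libraries in Daxx-/- replicate 2 (18.7, 1.42 and 40.4 CPM). Its sums of stem cell and primed epiblast markers were the lowest of the 10 (3075 and 55.4 CPM). The part of all these markers in the levels of that library was not tested.

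**Figure D2:**
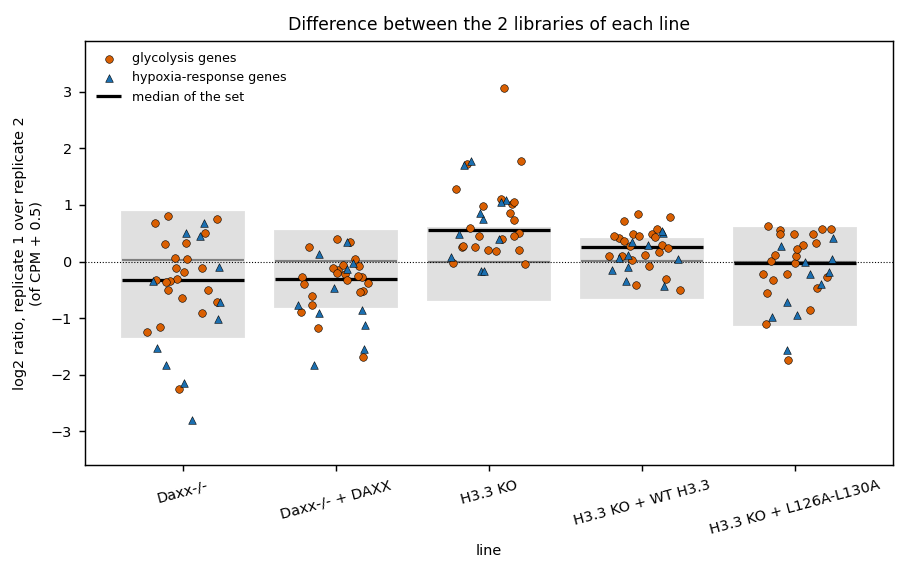
The vertical axis is the log2 ratio of replicate 1 to replicate 2 for each gene of the set in each line, with circles for glycolysis genes and triangles for hypoxia-response genes. Grey boxes span the central 90% of all genes tested, grey lines their median, and black lines the median of the set. Most of the H3.3 KO points lie above 0 (median 0.55), and most of the Daxx-/- and DAXX-rescued points below it.

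Glucose enters these cells mainly through Slc2a1 (GLUT1) and Slc2a3 (GLUT3). Slc2a3 held 78.5% to 94.7% of their summed counts per kilobase in all 10 libraries. Slc2a1 was measured at 202 and 231 CPM in Daxx-/-, 177 and 207 with DAXX, 133 and 65.9 in H3.3 KO, 154 and 89.0 with WT H3.3, and 206 and 168 with L126A-L130A. The H3.3 KO and WT H3.3 libraries were all below the other 6. Slc2a3 ranged from 898 to 1827 CPM, with no line standing clear of the rest.

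The upper pathway traps and splits glucose. Of the hexokinases, which add the first phosphate, Hk2 held 55.0% to 75.5% of the Hk1 and Hk2 counts per kilobase. Gpi1, the isomerase of the next step, stood at 907 and 1284 CPM in Daxx-/-, 791 and 859 with DAXX, 607 and 427 in H3.3 KO, 613 and 564 with WT H3.3, and 638 and 741 with L126A-L130A. All 4 Daxx libraries were above all 6 H3.3 libraries. Phosphofructokinase, the main control point, comes in 3 forms, of which Pfkp held 48.4% to 76.4% and Pfkm 7.4% to 20.8% of the counts per kilobase. Pfkm stood at 89.7 and 127 CPM in Daxx-/-, 54.8 and 68.5 with DAXX, 59.1 and 51.7 in H3.3 KO, 50.0 and 71.6 with WT H3.3, and 42.0 and 52.6 with L126A-L130A, so that the Daxx-/- libraries were above all others. Pfkp stood at 375 and 405 CPM in Daxx-/-, 162 and 233 with DAXX, 497 and 507 in H3.3 KO, 340 and 319 with WT H3.3, and 365 and 538 with L126A-L130A, lowest in both DAXX-rescued libraries. Aldoa held at least 97.7% of the aldolase counts per kilobase, so Aldoc was a minor form throughout. Pfkfb3 and Pfkfb4, which set the level of the activator of phosphofructokinase, lay at 17.0 to 50.9 and 2.85 to 4.64 CPM.

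In the lower pathway, Pgam1 (phosphoglycerate mutase) stood at 975 and 688 CPM in Daxx-/-, 963 and 929 with DAXX, 533 and 355 in H3.3 KO, 629 and 458 with WT H3.3, and 961 and 623 with L126A-L130A. Both H3.3 KO libraries were below both Daxx-/- libraries. Gapdh, often used as a reference gene, ranged from 3511 to 6902 CPM. Eno1 shares nearly all its sequence with the copy Gm5506, and the split of reads between them differed by line. Eno1 held 47.2% to 48.2% of the summed CPM in the 4 Daxx libraries and 64.0% to 72.3% in the 6 H3.3 libraries, so its level between the 2 parental lines cannot be read alone. The sum of both stood at 2098 and 1180 CPM in Daxx-/-, 2245 and 1849 with DAXX, 1867 and 909 in H3.3 KO, 2150 and 1571 with WT H3.3, and 3491 and 2402 with L126A-L130A, where both libraries were the highest of the 10.

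Pyruvate is turned to lactate by Ldha and Ldhb, of which Ldhb favours the reverse reaction. Ldha stood at 1074 and 1021 CPM in Daxx-/-, 734 and 878 with DAXX, 697 and 285 in H3.3 KO, 592 and 432 with WT H3.3, and 1120 and 747 with L126A-L130A. Ldhb stood at 147 and 329 CPM in Daxx-/-, 326 and 554 with DAXX, 106 and 77.4 in H3.3 KO, 249 and 261 with WT H3.3, and 131 and 282 with L126A-L130A. Per kilobase, Ldhb made up 14.3% and 28.2% of the pair in Daxx-/-, 35.1% and 43.5% with DAXX, 15.6% and 24.9% in H3.3 KO, 33.9% and 42.3% with WT H3.3, and 12.5% and 31.5% with L126A-L130A. The DAXX and WT H3.3 libraries thus had the 4 highest shares. Pdk1 stood at 59.9 and 48.3 CPM in Daxx-/-, 89.2 and 94.4 with DAXX, 52.7 and 43.3 in H3.3 KO, 73.5 and 62.1 with WT H3.3, and 118 and 83.9 with L126A-L130A. Every rescued library was above both libraries of its own KO line.

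**Figure D3:**
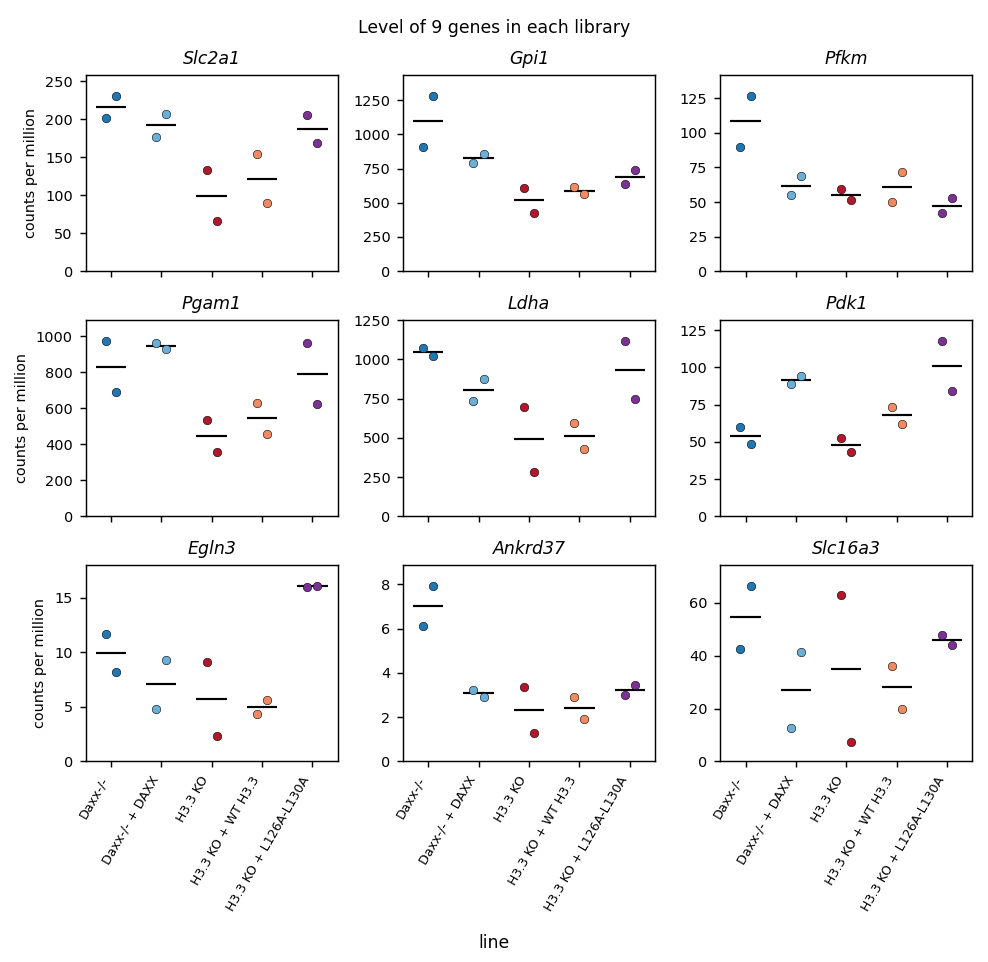
Points are single libraries, replicate 1 left and replicate 2 right, and bars are the mean of the 2 libraries of a line, in CPM on linear axes from 0. For Pdk1 every rescued library lies above both libraries of its KO line, and for Egln3 both L126A-L130A libraries (16.0 and 16.1 CPM) lie above the other 8.

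**Figure D4:**
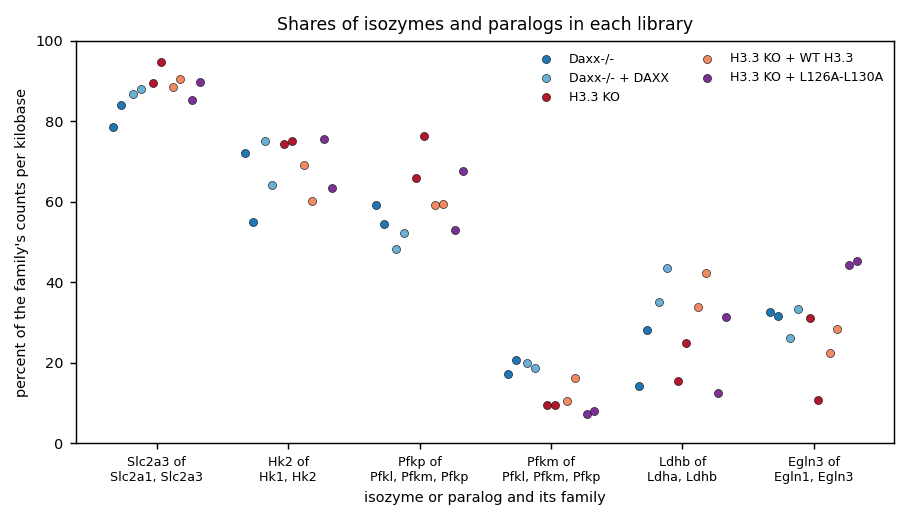
Each point is the share of one isozyme or paralog in the counts per kilobase of its family in one library, in percent, coloured by line. Slc2a3 holds most of its family everywhere, and the Ldhb share is highest in the libraries with DAXX or WT H3.3.

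Several hypoxia-response genes encode oxygen-dependent hydroxylases or demethylases. Egln3 stood at 11.7 and 8.15 CPM in Daxx-/-, 4.78 and 9.33 with DAXX, 9.11 and 2.29 in H3.3 KO, 4.32 and 5.62 with WT H3.3, and 16.0 and 16.1 with L126A-L130A. Its share of the Egln1 and Egln3 counts per kilobase was 44.2% and 45.2% with L126A-L130A and 10.7% to 33.4% in the other libraries. P4ha2, a partner of P4ha1, ranged from 6.93 to 34.0 CPM, and Kdm3a, a demethylase of histone H3, from 103 to 311 CPM. Kdm3a was highest with DAXX (311 and 244 CPM) together with Daxx-/- replicate 1 (245 CPM), and lowest with L126A-L130A (137 and 103 CPM).

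Among the effectors, Ankrd37 stood at 6.11 and 7.94 CPM in Daxx-/-, 3.23 and 2.92 with DAXX, 3.34 and 1.30 in H3.3 KO, 2.93 and 1.91 with WT H3.3, and 2.99 and 3.44 with L126A-L130A, from 21 to 145 counts per library. Both Daxx-/- libraries were above all others. Vegfa stood at 49.8 and 101 CPM in Daxx-/-, 16.1 and 35.5 with DAXX, 84.2 and 94.5 in H3.3 KO, 93.5 and 104 with WT H3.3, and 30.9 and 92.7 with L126A-L130A. Adm was at the edge of detection, with 0 and 3 counts with WT H3.3, 3 and 16 with L126A-L130A, 21 and 5 in H3.3 KO, and 5 and 38 with DAXX. Higd1a, a small mitochondrial protein, varied least among the effectors, from 11.2 to 22.2 CPM.

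Putting DAXX back into the Daxx-/- line gave no gene of the set past an edgeR adjusted p of 0.05 with at least a 2-fold change, the rule for a call used throughout, where 1.08% of all genes tested were called. The median log2 fold change of the set was -0.37, against -0.01 over all genes, with 23 genes lower and 11 higher. At an unadjusted p of 0.05, 7 were lower and 1 higher by edgeR, a share near that of all genes (21.6%), and DESeq2 had 8 in all. Markers of other cell types went in both directions with DAXX, with no adjusted p under 0.05 by edgeR for any tested. Primitive endoderm markers summed to 6.61 and 18.7 CPM in Daxx-/- and to 4.03 and 6.35 CPM with DAXX (4 of 4 tested lower). Fibroblast markers summed to 27.6 and 40.4 and to 12.4 and 17.2 CPM (2 of 2 lower). Primed epiblast markers instead summed to 100.4 and 55.4 and to 157 and 107 CPM (2 of 3 tested higher). Of the 4 neural markers tested, 3 were higher and 1 lower, with a median log2 fold change of 0.6. The part of all these markers in the result was not tested. The lowest adjusted p by edgeR was 0.0605, for Pfkp, at a log2 fold change of -0.98 (SE 0.22), and Pdk1 had 0.76 (SE 0.20, adjusted p = 0.0859). The largest positive value was that of Ldhb at 0.88 (SE 0.44, adjusted p = 0.281), and the most negative that of Adm at -2.01 (SE 1.25, adjusted p = 0.37), which rests on the 159 counts of Daxx-/- replicate 2 and became 0.49 without that library. In 11 genes both DAXX libraries were below both Daxx-/- libraries (24.0% of all genes), among them all of the phosphofructokinases, Ldha, Pgk1, P4ha1, Vegfa and Ankrd37. In 3 genes, Aldoa, Pdk1 and Higd1a, both were above (22.2% of all genes). Without Daxx-/- replicate 2 the median of the set was -0.09, and without Daxx-/- replicate 1 it was -0.40.

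WT H3.3 in the H3.3 KO line also gave no call in the set, where 0.205% of all genes were called. Of the 34 genes 16 were higher and 18 lower, with a median of -0.03 against 0.02 over all genes, but the split moved with single libraries. Without H3.3 KO replicate 1, 27 were higher (median 0.53), and without H3.3 KO replicate 2, 26 were lower (median -0.31). Without WT H3.3 replicate 1, 24 were lower (median -0.18), and without WT H3.3 replicate 2, 23 were higher (median 0.10). By edgeR 3 had an unadjusted p under 0.05 (13.3% of all genes did), and by DESeq2 4. Ldhb had the largest positive value, 1.47 (SE 0.45, adjusted p = 0.231), and it was called by DESeq2 and in a fit of these 4 libraries alone. The largest negative value, -2.97 for Adm (SE 1.78, adjusted p = 0.532), rests on 21 and 5 counts against 0 and 3 and depends on how the fit treats counts near 0. Both rescued libraries were above both KO libraries for Hk1, Ldhb, Pdk1 and Pfkfb4 (29.3% of all genes) and below them for 5 genes (26.7% of all genes), Pfkp, Pfkfb3, Egln1, P4ha2 and Adm.

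With L126A-L130A in the same KO line, Pdk1 rose by 1.07 on the log2 scale (SE 0.20, edgeR adjusted p = 0.0494), the only call of the set, where 0.795% of all genes were called. It is close to the threshold, staying past it in 8 of 17 other settings, with log2 values of 0.81 to 1.30 and adjusted p of 0.000179 to 0.342. The set as a whole lay higher, 28 genes against 6, with a median of 0.43 against 0.04 over all genes. An unadjusted p under 0.05 was reached by 10 higher genes and 1 lower one (16.8% of all genes reached it). Primed epiblast markers summed to 66.9 and 65.8 CPM in H3.3 KO, 57.4 and 56.6 CPM with WT H3.3, and 287 and 103 CPM with L126A-L130A. Most of the last was Dnmt3b, at 281 and 98.6 CPM. Of the 3 primed markers tested, 2 were higher against H3.3 KO and 1 lower, with a median log2 fold change of 0.02. Of the 6 stem cell markers, 4 were higher and 2 lower against H3.3 KO, and 2 higher and 4 lower against WT H3.3. Among the lower ones, Nanog stood at 796 and 966, 915 and 949.7, and 588 and 669 CPM in the same order of lines. The part of these markers here and in the next comparison was not tested. The 10 higher genes of the set at an unadjusted edgeR p under 0.05 included Egln3 at 1.49 (SE 0.56, adjusted p = 0.227, the largest value). Also among them were Ldhb at 1.18 (SE 0.45), Eno1 at 1.06 (SE 0.35), Ldha at 0.93 (SE 0.37), Slc2a1 at 0.91 (SE 0.34) and Pgam1 at 0.83 (SE 0.28). Summed with its copy, Eno1 had 1.09 (SE 0.38, adjusted p = 0.195). The lower one was Kdm3a at -0.67 (SE 0.27), while the most negative value was -0.77 for P4ha2 (SE 0.48, adjusted p = 0.469). In 19 genes both L126A-L130A libraries were above both KO libraries (26.2% of all genes), and in 2 below (23.8% of all genes). The 2 KO libraries weighed on this comparison unequally: without H3.3 KO replicate 2 the median of the set was 0.20 and 22 genes were higher, and without replicate 1 it was 0.90 and 29 were higher.

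L126A-L130A was then set against WT H3.3, both carried by the same KO line. No gene of the set was called, where 0.5% of all genes were. In 23 genes both mutant libraries were above both WT libraries (22.3% of all genes), covering transport, 12 enzymes and kinases of glycolysis and pyruvate, lactate export and 8 hypoxia-response genes. In 3 genes, Pfkfb4, Vegfa and Kdm3a, both were below (22.9% of all genes). The median log2 fold change was 0.50, against 0.01 over all genes, with 26 genes higher and 8 lower. All 8 genes with an unadjusted p under 0.05 were higher (12.4% of all genes passed that p, in either direction), and DESeq2 also had 8. These were led by Egln3 at 1.69 (SE 0.57, adjusted p = 0.259), Bnip3 at 1.36 (SE 0.59), Tpi1 at 0.88 (SE 0.35), Ldha at 0.87 (SE 0.37), Pdk1 at 0.57 (SE 0.20) and Aldoa at 0.56 (SE 0.17), which had the lowest adjusted p, 0.193. The largest positive value, 2.53 for Adm (SE 1.83, adjusted p = 0.681), rests on 3 and 16 counts against 0 and 3, and the most negative was -0.67 for Vegfa (SE 0.52, adjusted p = 0.707). Leaving out any 1 of the 4 libraries gave medians of 0.35 to 0.67 and no call. This comparison and the one before it share the L126A-L130A libraries.

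**Figure D5:**
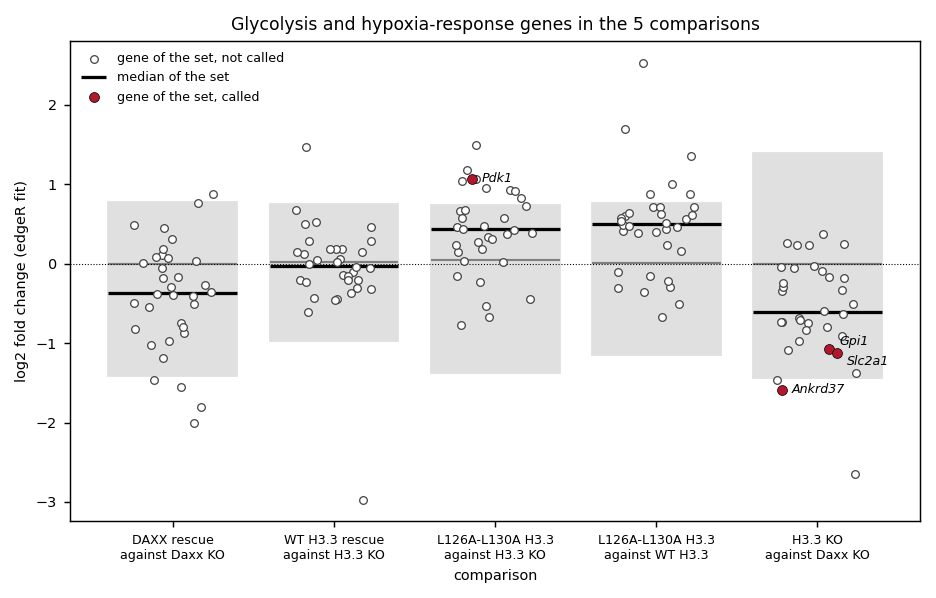
The vertical axis is the log2 fold change fitted by edgeR for each gene of the set in the 5 comparisons. Grey boxes span the central 90% of all genes tested, grey lines their median, black lines the median of the set, and filled points the called genes. Medians of the set are -0.37, -0.03, 0.43, 0.50 and -0.62 from left to right.

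The KO lines were compared with each other last. They differ in the deleted genes and in strain, which cannot be told apart, and 11.7% of all genes tested were called. Gpi1 fell by 1.08 on the log2 scale in H3.3 KO (SE 0.21, edgeR adjusted p = 0.0087), Slc2a1 fell by 1.13 (SE 0.34, adjusted p = 0.0409) and Ankrd37 fell by 1.59 (SE 0.46, adjusted p = 0.0369). These 3 of 34, with none higher, are a share no greater than the background of calls. Pfkm fell by 0.97 (SE 0.24, adjusted p = 0.0204) and Pgam1 fell by 0.91 (SE 0.28, adjusted p = 0.0457), both past the adjusted p but short of 2-fold. The median of the set was -0.62 against -0.01 over all genes, with 29 genes lower and 5 higher. At an unadjusted p under 0.05 there were 12, all lower (37.8% of all genes passed it). Fibroblast markers, mainly Thy1, summed to 27.6 and 40.4 CPM in Daxx-/- and 10.7 and 8.44 CPM in H3.3 KO, with 1 of 2 tested called lower. Of the 6 stem cell markers, 5 were higher and 1 lower in H3.3 KO. By edgeR 3 of them were past the adjusted p, as were 3084 of the 13201 genes tested. Called lower were also 1 of 3 primed epiblast markers, 1 of 4 neural markers and the 1 erythroid marker tested. The part of all these markers was not tested. Pfkp had the largest positive value at 0.37 (SE 0.21, adjusted p = 0.24) and Adm the most negative at -2.65 (SE 1.30, adjusted p = 0.17). Both H3.3 KO libraries were below both Daxx-/- libraries in 12 genes (29.0% of all genes), and for Pfkp alone both were above (31.1% of all genes). Without H3.3 KO replicate 2 the median was -0.14 and no gene was called, and without Daxx-/- replicate 2 the median was -0.31 and Pgam1 was the 1 gene called. The Daxx-/- libraries are shared with the DAXX comparison and the H3.3 KO libraries with both H3.3 rescues, so these values do not count separately.

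Whether DAXX and H3.3 acted differently on these genes was tested as a difference between the 2 log2 fold changes, which share no library though strain and KO differ. No gene of the set had an adjusted p under 0.05 for DAXX against WT H3.3 (0.0455% of all genes did), with 3 at an unadjusted p under 0.05 by edgeR (13.8% of all genes) and 4 by DESeq2, and 0.286 as the lowest adjusted p, for Pfkm. For DAXX against L126A-L130A there was also none (0.0227% of all genes). The DAXX effect was the lower one in 31 of 34 genes, with a median difference of -0.79 against -0.01 over all genes. Daxx-/- replicate 2, whose set average was 0.52 above the mean, and H3.3 KO replicate 2, 0.63 below it, both make this difference more negative. The median difference without either library was not computed. Here 12 genes had an unadjusted p under 0.05 by edgeR (11.0% of all genes) and 13 by DESeq2, among them Ndrg1 at -2.41 (SE 0.86), P4ha1 at -2.06 (SE 0.73) and Egln3 at -1.99 (SE 0.79), and the lowest adjusted p was 0.355, for Kdm3a at 1.15 (SE 0.38).

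Within a KO background, Hif1a, Epas1 and Arnt had no adjusted p under 0.05 by edgeR. Arnt2, a relative of Arnt that DESeq2 called lower in both H3.3 rescues and that was singled out for it, stood at 5.88 and 8.56 CPM in H3.3 KO, 2.93 and 3.07 CPM with WT H3.3, and 2.85 and 2.73 CPM with L126A-L130A (edgeR log2 fold changes of -1.27, adjusted p = 0.175, and -1.37, adjusted p = 0.0803). Hif1a averaged 117 ± 13.2 CPM in Daxx-/- and 124 ± 0.924 CPM with DAXX (SD, n = 2), against 184 ± 0.837 CPM in H3.3 KO. It averaged 185 ± 45.0 CPM with the mutant H3.3 and 179.6 ± 21.8 CPM with the WT form. Epas1 ranged from 27.6 to 35.5 CPM in the 4 Daxx libraries and from 45.7 to 63.0 CPM in the 6 H3.3 libraries. Between the KO lines Hif1a rose by 0.66 (SE 0.18, edgeR adjusted p = 0.0311) and Epas1 by 0.70 (SE 0.19, adjusted p = 0.0309) in H3.3 KO, both short of 2-fold. Arnt lay between 91.4 and 131 CPM and Vhl between 27.5 and 58.8 CPM, with no adjusted p under 0.05 in any comparison. HIF alpha is controlled mostly as a protein, which RNA does not measure.

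Other genes of these pathways were counted from fixed lists of 15 further glycolysis genes, 14 of pyruvate entry into mitochondria, 10 of the pentose phosphate branch, 15 of the HIF pathway and 36 other HIF target genes. In the 3 comparisons with H3.3 transgenes edgeR called none of these 90, with 9, 9 and 13 at an unadjusted p under 0.05 for WT H3.3, L126A-L130A against H3.3 KO and L126A-L130A against WT H3.3, beside 13.3%, 16.8% and 12.4% of all genes. DESeq2 called 3, 4 and 3, and 3 for DAXX rescue and 11 between the KO lines, and its share over all genes was not counted. At an unadjusted edgeR p under 0.05 there were 32 of the 90 for DAXX rescue and 36 between the KO lines. The shares of all genes there were 21.6% and 37.8%. By edgeR, DAXX rescue gave 1 call, a fall of Prps2, which makes the ribose precursor of nucleotides, by 1.07 (SE 0.17, adjusted p = 0.0265), from 139 and 112 CPM to 62.7 and 57.0 CPM. Between the KO lines edgeR called 9 of the 90, a share no greater than the 11.7% of all genes called. Higher in H3.3 KO were 2 glycolysis genes (Pgm1 at 1.03 and Pgm2 at 1.60, which move phosphate on glucose). Also higher was 1 gene of pyruvate entry (Dld at 1.02), while 2 of the pentose phosphate branch were lower (H6pd at -1.17 and Prps2 at -1.09). Of the other HIF targets Ak4 (1.53), Gbe1 (1.38) and Narf (1.02) were higher and Car12 (-3.03) lower. Medians of these lists in the comparison of L126A-L130A with WT H3.3 were 0.13, -0.06, 0.03, 0.07 and 0.20 in the order above, beside 0.50 for the set of 34. For L126A-L130A against H3.3 KO they were 0, -0.1, 0.22, 0.17 and 0.07, beside 0.43. With WT H3.3 they were 0.06, 0.04, 0.13, 0.03 and -0.11, beside -0.03. In the DAXX comparison they were -0.32, -0.3, -0.39, 0.13 and -0.44, beside -0.37. Between the KO lines they were -0.27, -0.45, -0.54, -0.17 and -0.21, beside -0.62.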

How the data were processed

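PolyA RNA was sequenced from 10 libraries. Per the labels, reads were processed with Bowtie and RSEM on mm9; versions and annotation are not given in the sources used here. The deposited table holds the authors' expected counts per gene, although its name speaks of TPM: columns sum to different totals and most values are whole. Groups were taken from the sample labels. The counts were rounded and tested with edgeR 4.0.16 (quasi-likelihood test, abundance trend, all 10 libraries, line as the only term, median-of-ratios factors between 0.935 and 1.04), after a filter of at least 1 CPM in at least 2 libraries, which left 13201 genes. P-values were adjusted by Benjamini-Hochberg over all of them. A call needs an adjusted p under 0.05 and a 2-fold change, or for differences between effects the adjusted p alone. SE is the log2 fold change over the root of the F statistic. CPM uses the effective library size, and log2 levels add 0.5 CPM. EBSeq, the study's tool, was not run. DESeq2 1.42.0, other scalings and filters, a replicate block and omission of each library were tried. The edgeR step was tested on simulated data. Lengths are median GENCODE transcripts (GRCm38).

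The genes and lists were chosen with earlier results of these data known. Any gene of the set could be named. Full statistics went to those past an adjusted p of 0.05 and to the largest positive and negative value in each comparison. Genes of the wider lists were named where edgeR called them, plus Hif1a, Epas1, Arnt and Vhl, and Arnt2 for its DESeq2 calls. Others of those lists past the adjusted p but short of 2-fold were left unnamed. Antisense and overlapping genes cannot be told apart, since use of strand is not given in the sources used here.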

Additional observations from a re-analysis of the deposited data

How the results depend on the processing

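Calls in the set of 34 genes were few and moved with the setting. The share of all genes called was counted only for the edgeR calls reported above, so counts in the other settings have no background. DESeq2 called 2 genes for DAXX rescue (P4ha1 and Vegfa), 1 for WT H3.3 (Ldhb), 2 for L126A-L130A against H3.3 KO (Eno1 and Pdk1) and 5 between the KO lines. A fit of only the libraries compared called 0, 1 (Ldhb), 0 and 0 in these. Whether replicate numbers pair the libraries is not given by the labels. Over all genes tested, differences between replicates correlated at 0.26 to 0.56 among the other 4 lines but at -0.05 to 0.27 with H3.3 KO. Over the 34 genes they correlated at 0.38 to 0.74 among those 4 lines and at -0.49 to 0.18 with H3.3 KO. No shared pairing was assumed in the main fit, also for the comparisons that do not involve H3.3 KO. With the replicate block 1 gene was called for DAXX rescue (Vegfa), 2 for L126A-L130A against H3.3 KO (Eno1 and Pdk1) and 5 between the KO lines (Ankrd37, Gpi1, Ldha, Ldhb and Slc2a1). A minimum mean of 5 CPM left 0 for L126A-L130A against H3.3 KO. Between the KO lines, no filter on low counts gave 5 and no fold minimum gave 5. Leaving out 1 library gave 0 to 7 calls for DAXX rescue, 0 to 1 for L126A-L130A against H3.3 KO, and 0 to 9 between the KO lines (9 without Daxx-/- replicate 1, 6 without H3.3 KO replicate 1, and 1, Gpi1, without either DAXX-rescued library). The call of Pdk1 was lost without either DAXX-rescued, H3.3 KO or WT H3.3 library or without L126A-L130A replicate 1, and that of Gpi1 without H3.3 KO replicate 2 (adjusted p = 0.0701) or with the libraries of the comparison alone (0.056), and without Daxx-/- replicate 2, where it was short of 2-fold (log2 -0.81). Slc2a1 stayed past the adjusted p in 12 of 17 other settings and Ankrd37 in 9 of 16.

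Directions of the named genes turned in 2 cases. Adm had log2 fold changes of -4.22 to 0.49 for DAXX rescue with 1 library left out, positive without Daxx-/- replicate 2. Eno1 summed with Gm5506, an alternative chosen after seeing the data, had -0.24 between the KO lines, where Eno1 alone had 0.24. Counts of genes over 1.5-fold apart between replicates stayed within 1.5 times under TMM factors and library size alone. With 2 libraries per line, the spread rests on 5 residual degrees of freedom, and Adm is limited by its counts.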
